A study of Homo sapiens with 40 samples.

Results

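The genes of the immunoproteasome and of peptide loading onto MHC class I molecules were followed in 10 established human lines of diffuse large B-cell lymphoma treated with the EZH2 inhibitor GSK126 or with DMSO. The 10 genes are PSMB8, PSMB9, PSMB10, PSME1, PSME2, TAP1, TAP2, TAPBP, CALR and ERAP1. Each gene was represented by the probe set annotated with its symbol alone and with the highest mean over the 40 arrays, and 9 of the 10 genes had one. The probe set of PSME2 carries a second gene symbol, so PSME2 has no values here. The other genes give the background: 15211 genes were tested of 19775 with a single-symbol probe set. All 9 measured genes lay above the array's median signal on each of the 40 arrays.

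GSK126 blocks EZH2, the subunit of Polycomb repressive complex 2 that methylates histone H3 at repressed genes. EZH2 was mutant in DB, KARPAS-422, Pfeiffer, SU-DHL-4, SU-DHL-6, SU-DHL-10 and WSU-DLCL2, and wild type in HT, OCI-LY-19 and Toledo. The alleles of the mutant lines are not given in the sources used here, and each line is a single model. Cultures of each line received GSK126 at 500 nM or 0.1% DMSO as vehicle and were harvested at 72 h, with 2 arrays per line and treatment. The labelled growth IC50, the GSK126 concentration at the midpoint of growth inhibition, was lowest in Pfeiffer (28 nM) and highest in Toledo (13786 nM). The titles name biological replicates but not what set one culture apart from another, so p-values within a line measure only the spread between these arrays.

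MHC class I molecules show short peptides from inside the cell to T cells. Proteasomes cut proteins into such peptides. In lymphoid cells, and in other cells after interferon, the catalytic subunits encoded by PSMB8, PSMB9 and PSMB10 (β5i, β1i and β2i) take the places of those encoded by PSMB5, PSMB6 and PSMB7, which changes the ends of the peptides made. PSME1 and PSME2 form the PA28 cap that opens the proteasome core. TAP1 and TAP2 pair to pump peptides into the endoplasmic reticulum, where ERAP1 trims them and tapasin (TAPBP) and calreticulin (CALR) help load them onto class I.

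In RefSeq (GRCh38.p14), TAP2 (chr6:32821831-32838739), PSMB8 (chr6:32840717-32844679), TAP1 (chr6:32845209-32853704) and PSMB9 (chr6:32854192-32859851) lie side by side in the MHC class II region and together span 38.0 kb. The starts of TAP1 and PSMB9 face away from each other and are 487 bases apart. TAPBP lies further along the same chromosome (chr6:33299694-33314078), while PSME1 (chr14:24136194-24138962) and PSME2 (chr14:24143365-24146610) are neighbours. PSMB10 (chr16:67934506-67936850), ERAP1 (chr5:96760813-96935854) and CALR (chr19:12938609-12944489) lie alone.

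The promoters of these genes are shown because many of the genes are known targets of interferon regulatory factors. The motif searched was GAAA, any 2 bases and GAAA again, on both strands, the core of the element that such factors bind, in RefSeq (GRCh38.p14) windows of 300 bases (250 before to 50 after a start). It was present in 8 of the 10 genes, 7 of the 9 measured, and absent from the windows of PSMB9 and CALR. Among all 27303 genes with a window it was found in 4.38%, and in 3.57% of 35114 windows. TAP1 and TAPBP each hold 2 overlapping matches. TAP1, PSMB8 and ERAP1 each have 2 windows, of which 1 holds a match. A match describes letters and not binding, and its part in the responses below was not tested. Each stretch is written 5′ to 3′ on the strand of its gene, with the match in capitals, where TTTC marks a match on the other strand.
TAP1 (chr6:32853811-32853850, minus strand): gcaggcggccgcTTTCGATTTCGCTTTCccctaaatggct
TAP2 (chr6:32838776-32838809, minus strand): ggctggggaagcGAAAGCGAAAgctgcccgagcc
PSMB8 (chr6:32844030-32844063, minus strand): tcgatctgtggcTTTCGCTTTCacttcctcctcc
TAPBP (chr6:33314071-33314110, minus strand): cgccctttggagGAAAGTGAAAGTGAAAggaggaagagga
PSMB10 (chr16:67936850-67936883, minus strand): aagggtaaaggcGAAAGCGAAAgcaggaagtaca
PSME1 (chr14:24136187-24136220, plus strand): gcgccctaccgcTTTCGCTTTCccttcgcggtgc
PSME2 (chr14:24146617-24146650, minus strand): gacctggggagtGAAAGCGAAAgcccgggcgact
ERAP1 (chr5:96807922-96807955, minus strand): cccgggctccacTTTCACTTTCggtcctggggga

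The whole window of TAP1 that holds its matches (chr6:32853655-32853954, minus strand) lies in the interval between the TAP1 and PSMB9 starts apart from its last bases, and is given because TAP1 had the largest change of the 9 genes.
TAP1 window: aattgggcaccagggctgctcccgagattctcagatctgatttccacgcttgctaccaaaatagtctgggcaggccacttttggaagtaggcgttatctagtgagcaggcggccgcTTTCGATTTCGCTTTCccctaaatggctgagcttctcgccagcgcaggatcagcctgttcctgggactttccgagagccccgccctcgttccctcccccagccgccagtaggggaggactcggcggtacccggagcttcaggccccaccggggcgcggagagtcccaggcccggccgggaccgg

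The lines showed B cell markers: CD79A, CD79B, CD22 and PAX5 lay above the array median on all 40 arrays and MS4A1 on 36 arrays. Markers of other cell types were also read. The summed signal of 7 T and NK cell markers ranged between 178 and 15892 on GSK126 arrays and between 94 and 13299 on DMSO arrays, with the high sums in Pfeiffer and KARPAS-422. Of these, CD3E was above the array median on 36 arrays, CD8A on 8, CD3D on 7 and CD3G on 4, and NKG7 and GNLY on 0. The sum of 6 myeloid markers stayed between 118 and 316 on GSK126 arrays and between 132 and 389 on DMSO arrays. Of these, ITGAM was above the array median on 23 arrays, CSF1R on 11, LYZ on 2 and S100A8 on 1. CD14 and S100A9 were above it on 0. The sum of 5 stromal markers ranged between 441 and 21641 on GSK126 arrays and between 348 and 15737 on DMSO arrays. KARPAS-422 held the highest stromal sums. COL1A1 was above the median on 40 arrays, DCN on 39 and COL1A2 on 14, and COL3A1 and LUM on 0. The part of these markers in the results was not tested.

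The response of the genes to GSK126 differed from line to line. In KARPAS-422 8 of the 9 genes rose and CALR fell. In 4 other mutant lines between 2 and 5 genes changed, in SU-DHL-4 CALR alone rose, and in HT PSMB9 alone fell. In KARPAS-422 the summed signal of the stromal markers tested was 18510 and 21627 with GSK126, against 15694 and 15336 with DMSO, and that of the T and NK cell markers tested 6925 and 7576 with GSK126, against 9481 and 8585 with DMSO. The summed signal of the 3 myeloid markers tested was 84 and 57 with GSK126, against 177 and 257 with DMSO. Of the tested markers 1 of 3 stromal genes rose, 2 of 3 myeloid genes fell, and 0 of 4 T and NK cell genes were called. Of all genes 15.5% rose and 13.4% fell in that line. The part of these markers in the result was not tested. No gene was called in DB, OCI-LY-19 or Toledo. Over the 90 gene-by-line comparisons, 22 were called risen and 3 fallen at an adjusted p under 0.05 (limma, Benjamini-Hochberg), against 7.55% risen and 5.13% fallen over all genes and lines. Of these 25 calls 24 were in mutant lines and 1 in a wild type line, and 14 of the rises were outside KARPAS-422. Calls among all genes were uneven too. In the wild type lines 6.31% of all genes rose in HT, 1.97% in OCI-LY-19 and 0.138% in Toledo. In mutant lines that share ran between 2.14% (SU-DHL-4) and 15.5% (KARPAS-422). The difference in response between genotypes, given below, passed for 0 of the 9 genes. An array reads a whole culture, so fewer cells of a type and less RNA per cell cannot be told apart.

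Set against the share of all genes called in each line, KARPAS-422 had 8 of 9 genes risen where 15.5% of all genes rose, and 1 fallen where 13.4% fell. The median log2 fold change of the 9 genes there was 0.89, and that of all genes 0.01. In WSU-DLCL2 4 of 9 rose (13.9% of all genes) and 0 fell (12.7%), with a median of 0.26 against 0.07 for all genes. SU-DHL-6 had 4 risen (7.42%) and 1 fallen (3.56%), with a median of 0.07 against 0.03. Pfeiffer had 3 risen (14.6%) and 0 fallen (9.93%), at a median of 0.18 against 0.07. SU-DHL-10 had 2 risen (11%) and 0 fallen (7.16%), at 0.15 against 0.06. In SU-DHL-4 1 gene rose (2.14%) and 0 fell (0.454%), and in HT 0 rose (6.31%) and 1 fell (3%). The 3 lines without a call had few called genes in all: 2.5% risen and 0.618% fallen in DB, 1.97% and 0.44% in OCI-LY-19, and 0.138% and 0.0263% in Toledo.

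The arrays themselves can be compared without a test, by asking whether both GSK126 arrays lay above or below both DMSO arrays. They lay above for 9 of 9 genes in Pfeiffer, against 36.4% of all genes, and below for 0 (24.4%). This holds at the deposited scaling: at equal medians 5 of the 9 fold changes in Pfeiffer were above 0, at a median of 0.03. In KARPAS-422 they lay above for 8 (31%) and below for 1 (29.7%), and in WSU-DLCL2 above for 6 (36.5%) and below for 1 (26.4%). DB had no call, yet its arrays lay above for 6 of 9 (24%) and below for 0 (23.3%), and all 9 fold changes there were above 0 at the deposited scaling. OCI-LY-19 had 5 above (24%) and 0 below (20.3%), and SU-DHL-4 had 4 above (23.8%) and 1 below (20.1%). SU-DHL-6 and SU-DHL-10 each had 4 above (28% and 32.6%) and 2 below (21.2% and 21.5%). HT had 2 above (29.1%) and 4 below (22.2%), and Toledo had 2 above (20.4%) and 0 below (12.5%).

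**Figure D1:**
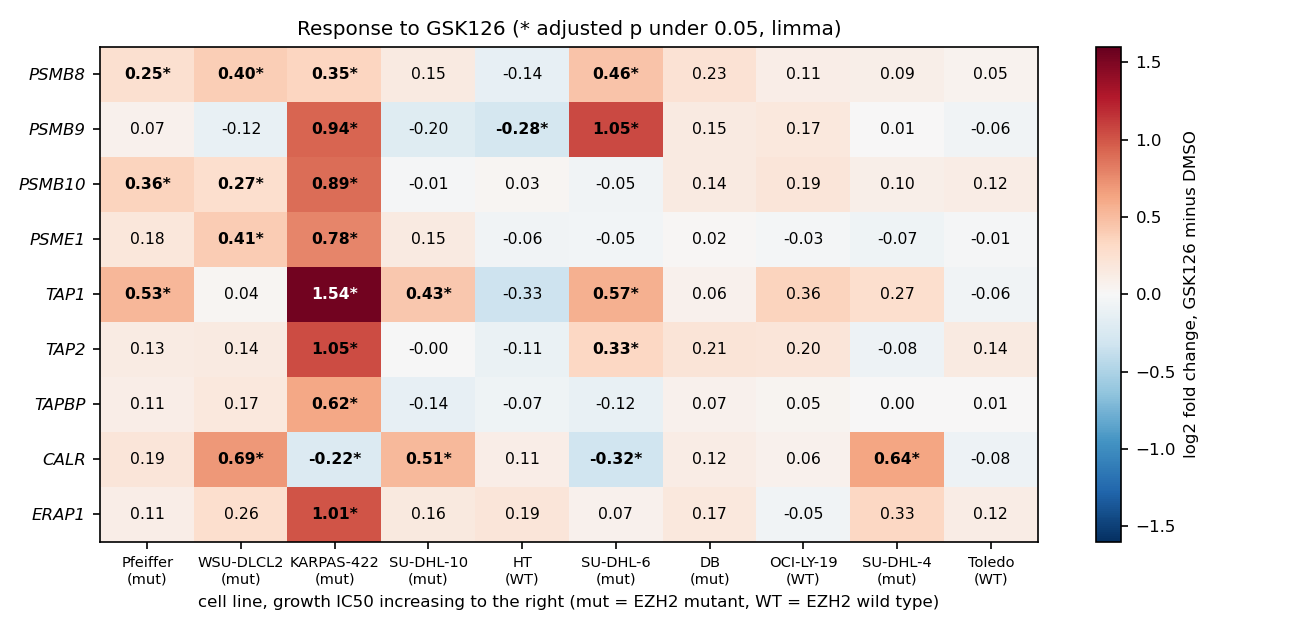
Log2 fold change (GSK126 minus DMSO) of each gene (rows) in each line (columns, ordered by growth IC50), with an asterisk at an adjusted p under 0.05. The KARPAS-422 column is above 0 in all rows except CALR. In the PSMB8 row its value (0.35) is below those of SU-DHL-6 (0.46) and WSU-DLCL2 (0.40). The PSMB9 row is high in KARPAS-422 (0.94) and SU-DHL-6 (1.05).

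The calls depended on how arrays were scaled. Bringing the arrays to equal medians shifted the fold change of each gene. The median of these shifts over the genes was -0.25 in SU-DHL-10, -0.24 in WSU-DLCL2 and -0.18 in SU-DHL-6. It was -0.17 in KARPAS-422, -0.15 in Pfeiffer and -0.14 in Toledo. In that scaling 11 comparisons were called risen and 5 fallen. Falls then outnumbered rises among all 15211 genes in most mutant lines. Pfeiffer had 969 risen and 2201 fallen, WSU-DLCL2 827 and 3696, and KARPAS-422 1545 and 3298. SU-DHL-10 had 777 and 3320, and SU-DHL-6 572 and 1897. Counts of falls at equal medians, here and below, stand against that shift of all genes. Of the 25 calls, 12 stood both at equal medians and after quantile normalization. These 12 are 7 of the 9 calls in KARPAS-422 (the rises of TAP1, TAP2, TAPBP, PSMB9, PSMB10, PSME1 and ERAP1), PSMB9 in SU-DHL-6, and CALR in SU-DHL-4, SU-DHL-6, SU-DHL-10 and WSU-DLCL2. None of the 3 calls in Pfeiffer was among them. At equal medians the median fold change of the 9 genes was below 0 in SU-DHL-10 (-0.11) and SU-DHL-6 (-0.12).

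Of the catalytic subunits, PSMB9 (β1i) changed most, and did so in KARPAS-422 and SU-DHL-6. In KARPAS-422 its signal was 13172 and 13090 on the GSK126 arrays, against 7013 and 6694 on the DMSO arrays. In SU-DHL-6 it was 1381 and 1319 with GSK126, against 634 and 649.5 with DMSO. The arrays of the treatments did not overlap in either line. The log2 fold change was 0.94 ± 0.07 in KARPAS-422 (SE, adjusted p = 2.38e-11) and 1.05 ± 0.07 in SU-DHL-6 (adjusted p = 2.96e-11). Both calls held under each of the 13 alternatives run. SU-DHL-6 had the lowest PSMB9 signal of the 10 lines under both treatments: its GSK126 mean of 1350 was still below the mean of 2188 in GSK126-treated SU-DHL-4, the next line up.

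PSMB9 went the other way in the wild type line HT, where it had 5132 and 5199 with GSK126, against 6274 and 6248 with DMSO. The arrays did not overlap, and the fold change was -0.28 ± 0.07 (adjusted p = 0.0103). This call was lost when any one of the 4 HT arrays was left out and at equal medians (adjusted p = 0.0574). SU-DHL-10 had 5154 and 5555 with GSK126, against 6681 and 5640 with DMSO (-0.20 ± 0.07, adjusted p = 0.0512). At equal medians PSMB9 was called fallen there (-0.45, adjusted p = 0.00224) and in WSU-DLCL2 (-0.37, adjusted p = 0.00956). In the other 5 lines its fold change lay between -0.06 and 0.17 with no call.

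PSMB8 (β5i) rose in 4 mutant lines, by smaller amounts. In SU-DHL-6 it had 1548 and 1543 with GSK126, against 1058 and 1186 with DMSO (0.46 ± 0.07, adjusted p = 5.55e-05). WSU-DLCL2 had 3084 and 2865 with GSK126, against 2328 and 2176 with DMSO (0.40 ± 0.07, adjusted p = 9.45e-05). KARPAS-422 had 9962 and 10726 with GSK126, against 8182 and 8049 with DMSO (0.35 ± 0.07, adjusted p = 0.000387). None of the 3 overlapped. In Pfeiffer it had 6408.5 and 5791 with GSK126, against 5267 and 4969 with DMSO, again without overlap (0.25 ± 0.07, adjusted p = 0.00992). The fold change was above 0 in 9 of 10 lines, HT (-0.14 ± 0.07) being the exception. At equal medians none of the 4 calls remained, with fold changes of 0.27, 0.15, 0.18 and 0.10 in SU-DHL-6, WSU-DLCL2, KARPAS-422 and Pfeiffer.

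PSMB10 (β2i) rose in 3 mutant lines. KARPAS-422 had 3754 and 3820 with GSK126, against 2067 and 2000.5 with DMSO (0.89 ± 0.07, adjusted p = 8.62e-11). Pfeiffer had 4135.5 and 3957 with GSK126, against 3177 and 3127 with DMSO (0.36 ± 0.07, adjusted p = 0.000377). WSU-DLCL2 had 2295 and 2239 with GSK126, against 1939.7 and 1818 with DMSO (0.27 ± 0.07, adjusted p = 0.00517). The arrays did not overlap in these lines. In SU-DHL-6, where both other catalytic subunits rose, PSMB10 had 2495 and 2288 with GSK126 against 2440.3 and 2522 with DMSO, which overlapped (-0.05 ± 0.07, adjusted p = 0.742). At equal medians the call in KARPAS-422 stood (0.72), and those in Pfeiffer (0.21, adjusted p = 0.201) and WSU-DLCL2 (0.02, adjusted p = 0.937) did not.

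**Figure D2:**
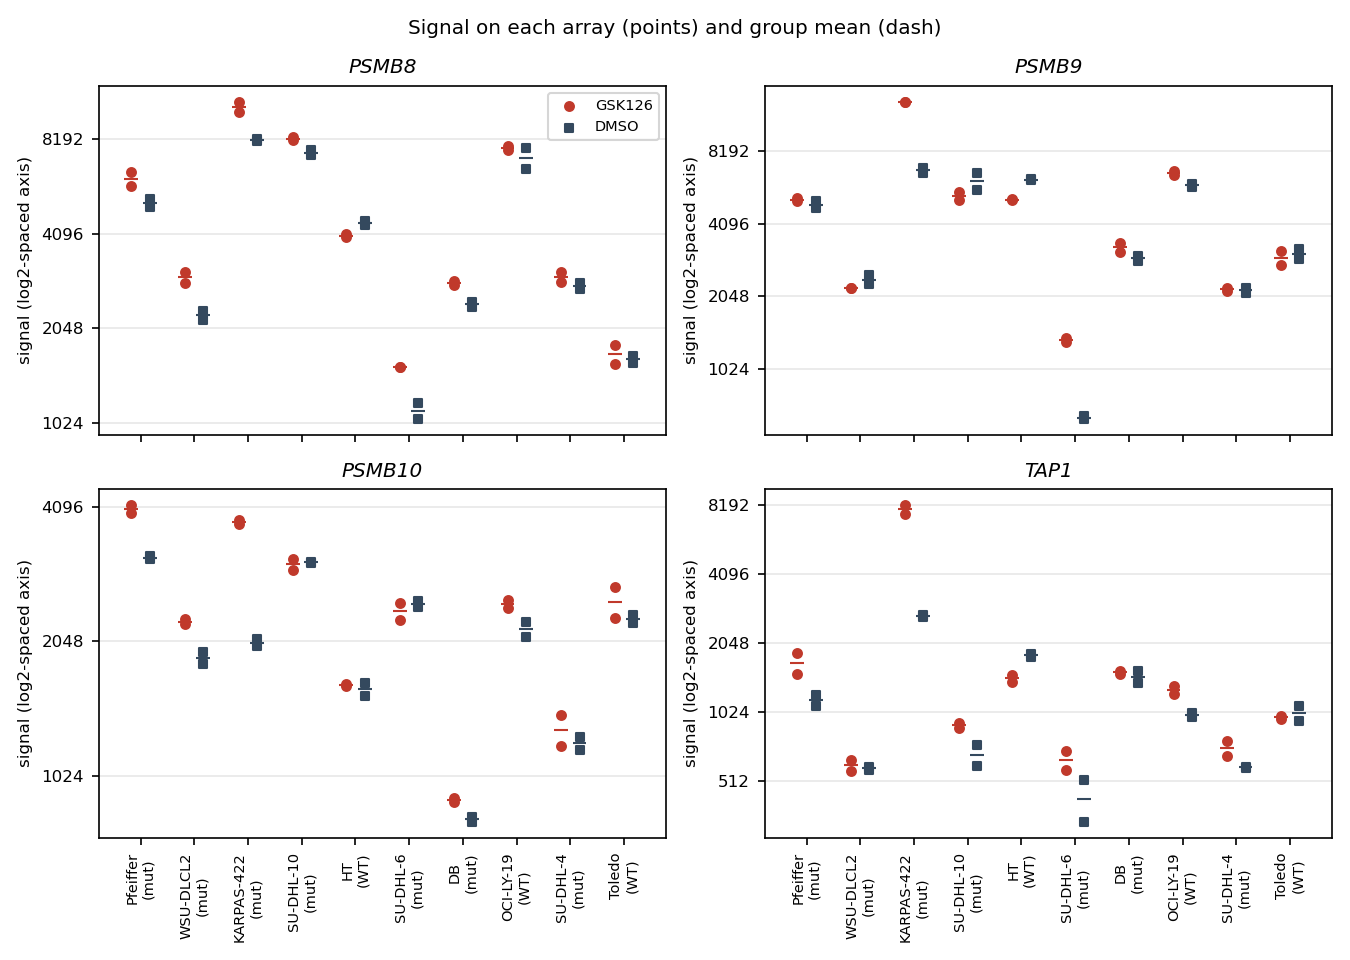
Signal on every array (log2-spaced axis) of PSMB8, PSMB9, PSMB10 and TAP1 in the 10 lines, with GSK126 arrays as circles, DMSO arrays as squares and group means as dashes. PSMB9 in SU-DHL-6 sits lowest of its panel under both treatments, at 1350 with GSK126 and 641.8 with DMSO.

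The 3 constitutive subunits gave a comparison within the same arrays. In KARPAS-422 all 3 immunosubunits rose and 0 of the 3 constitutive ones did, PSMB5 being at 0.01 ± 0.07, PSMB6 at -0.06 ± 0.06 and PSMB7 at -0.14 ± 0.07. In SU-DHL-6 2 immunosubunits and 0 constitutive subunits rose. Pfeiffer and WSU-DLCL2 were different, with 2 of 3 immunosubunits and 2 of 3 constitutive subunits risen in each: PSMB5 rose by 0.24 and 0.29 on the log2 scale there, and PSMB6 by 0.24 and 0.19. PSMB5 rose in SU-DHL-10 (0.42 ± 0.07, adjusted p = 0.000104) and no immunosubunit did. At equal medians the immunosubunit rises that remained were those of PSMB9 and PSMB10 in KARPAS-422 and of PSMB9 in SU-DHL-6. In that scaling 0 constitutive counterparts were called risen in any line. In KARPAS-422 3 of the 5 on the list were called fallen, where 3298 of 15211 genes were.

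A shift common to all genes of an array cancels in the within-array log2 ratio of an immunosubunit to its counterpart. Quantile normalization moves genes by different amounts, and the ratios were not recomputed under it. PSMB9 over PSMB6 was higher with GSK126 by 1.18 in SU-DHL-6, by 1.00 in KARPAS-422 and by 0.26 in OCI-LY-19, with both GSK126 arrays above both DMSO arrays. That ratio was lower with GSK126, without overlap, in HT (-0.31), WSU-DLCL2 (-0.31), SU-DHL-10 (-0.25) and Pfeiffer (-0.17). PSMB8 over PSMB5 was higher in SU-DHL-6 (0.52), KARPAS-422 (0.34), DB (0.19), OCI-LY-19 (0.19) and SU-DHL-4 (0.12) without overlap, and lower in SU-DHL-10 (-0.27). PSMB10 over PSMB7 was higher by 1.03 in KARPAS-422, by 0.07 to 0.19 in Pfeiffer, OCI-LY-19, WSU-DLCL2, DB and Toledo, and lower in SU-DHL-10 (-0.09), all without overlap. These differences between genes were not tested, and the share of all gene pairs that separate in this way was not worked out. Single genes often did so. In Toledo both GSK126 arrays lay above both DMSO arrays for 20.4% of all genes and below for 12.5%. In Pfeiffer the shares were 36.4% and 24.4%.

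**Figure D3:**
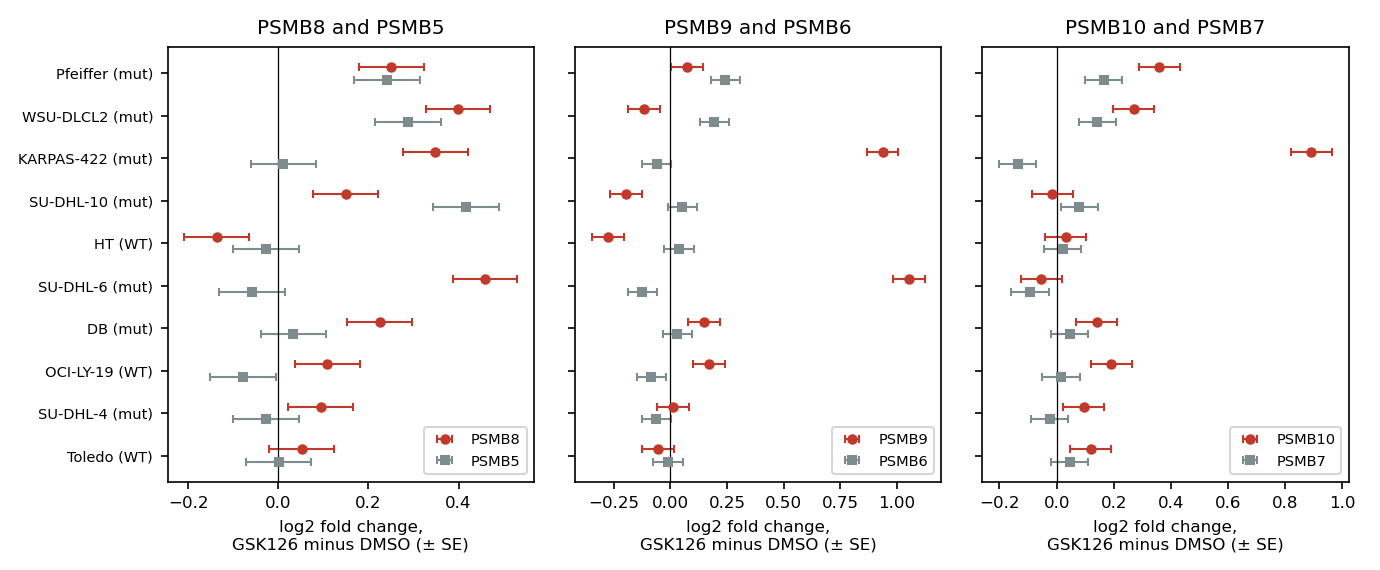
Log2 fold change (GSK126 minus DMSO, bars are SE) of each immunosubunit (circles) and its constitutive counterpart (squares) in the 10 lines, ordered by growth IC50. PSMB9 stands apart from PSMB6 in KARPAS-422 (0.94 against -0.06) and SU-DHL-6 (1.05 against -0.12).

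PSME1, the α subunit of the PA28 cap, rose in KARPAS-422 and WSU-DLCL2. KARPAS-422 had 13049.7 and 15068 with GSK126, against 8213 and 8115 with DMSO (0.78 ± 0.08, adjusted p = 1.19e-08). WSU-DLCL2 had 4192 and 3962 with GSK126, against 3283 and 2850.4 with DMSO (0.41 ± 0.08, adjusted p = 0.000259). The arrays of the treatments did not overlap, and at equal medians the WSU-DLCL2 call was lost (0.16, adjusted p = 0.303). In the remaining 8 lines the fold change lay between -0.07 and 0.18 with no call. Of the other caps, PSME3 (PA28γ) rose in SU-DHL-10 (0.24 ± 0.07) and PSME4 (PA200) fell in SU-DHL-10 (-0.49 ± 0.07) and WSU-DLCL2 (-0.33 ± 0.07), and neither was called in KARPAS-422. The 5 constitutive genes together had 6 rises and 2 falls in 50 comparisons, and 0 rises and 9 falls at equal medians. A list of the other core subunits and the assembly factor POMP had 11 tested genes. They had 7 rises and 1 fall in 110 comparisons, 0 of them in KARPAS-422. Over all genes and lines 7.55% rose and 5.13% fell at the deposited scaling. At equal medians these core genes had 0 rises and 22 falls, in lines where that scaling gave all genes more falls than rises. In SU-DHL-10 6 of the 11 fell, where 3320 of 15211 genes did, and in WSU-DLCL2 2 fell, where 3696 did. In KARPAS-422 6 fell, where 3298 genes did, and in SU-DHL-6 8 fell, where 1897 did.

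Of the transporter genes, TAP1 showed the largest fold change of the 9 members. In KARPAS-422 its signal was 7465 and 8174 on the GSK126 arrays, against 2648 and 2699.8 on the DMSO arrays. The groups lay far apart, with a log2 fold change of 1.54 ± 0.13 (adjusted p = 3.23e-10), and 2.32% of all genes rose more in that line. Smaller rises were called in 3 other mutant lines. SU-DHL-6 had 688.5 and 572 with GSK126, against 338 and 514 with DMSO (0.57 ± 0.13, adjusted p = 0.00435). Pfeiffer had 1845 and 1502 with GSK126, against 1081.5 and 1215 with DMSO (0.53 ± 0.13, adjusted p = 0.00328). SU-DHL-10 had 915 and 871 with GSK126, against 590.3 and 729 with DMSO (0.43 ± 0.13, adjusted p = 0.0203). This call was lost in 3 of 4 fits that left out an array, the fold change being 0.29 without DMSO array 1, and also with the replicate block and with the line fitted alone. The arrays did not overlap, but the 2 DMSO arrays of SU-DHL-6 were themselves far apart, and without the lower one the fold change there was 0.28 (adjusted p = 0.260). It was 0.44 without the higher GSK126 array (adjusted p = 0.0959). At equal medians the 3 smaller rises were not called (adjusted p = 0.0817 in SU-DHL-6, 0.0792 in Pfeiffer and 0.416 in SU-DHL-10).

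TAP2 followed TAP1 in KARPAS-422, with 4304 and 4182 with GSK126, against 1987 and 2094.5 with DMSO (1.05 ± 0.07, adjusted p = 3.30e-12). SU-DHL-6 had 1076 and 1007 with GSK126, against 870.1 and 784 with DMSO (0.33 ± 0.07, adjusted p = 0.00265). Neither overlapped, and the second call was lost at equal medians (0.14, adjusted p = 0.436). The other 8 lines had no call. In SU-DHL-6 the genes called risen were TAP2, PSMB8, TAP1 and PSMB9, which lie side by side on chromosome 6. Of these 4, PSMB9 was the 1 still called at equal medians and with the line fitted alone. PSMB10, PSME1, TAPBP and ERAP1 had fold changes between -0.12 and 0.07 there. Of the other probe sets for TAP2, the second brightest was at 0.66 in KARPAS-422 and 0.03 in SU-DHL-6, and the third at 1.14 and 0.54. The dimmest, above the array median on 19 arrays, was at 0.10 in KARPAS-422 and 0.27 in SU-DHL-6.

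TAPBP, which holds class I near the transporter, rose in KARPAS-422 alone. It had 2931 and 3295 with GSK126 there, against 2109 and 1932 with DMSO (0.62 ± 0.10, adjusted p = 1.24e-05). The arrays did not overlap. In the other 9 lines its fold change lay between -0.14 and 0.17 with no call at the deposited scaling. At equal medians TAPBP was also called fallen in SU-DHL-10 (-0.39, adjusted p = 0.0107). Its other 2 probe sets were at 0.58 and 0.63 in KARPAS-422.

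CALR, the lectin chaperone of the loading complex, had a pattern of its own. It rose in WSU-DLCL2, with 2255 and 2333 on the GSK126 arrays, against 1365 and 1462.5 on the DMSO arrays (0.69 ± 0.07, adjusted p = 2.68e-08). It also rose in SU-DHL-4, with 4410 and 4529 with GSK126 against 2857 and 2880.2 with DMSO (0.64 ± 0.07, adjusted p = 2.66e-06), and in SU-DHL-10, with 3903 and 4247 with GSK126 against 2774 and 2918 with DMSO (0.51 ± 0.07, adjusted p = 5.85e-06). In all 3 lines the GSK126 arrays were above the DMSO arrays. These 3 lines, with OCI-LY-19, had the lowest CALR signals under DMSO. CALR fell in SU-DHL-6, with 4883 and 5209 with GSK126 against 6761 and 5884 with DMSO (-0.32 ± 0.07, adjusted p = 0.00320). It fell in KARPAS-422, with 6924 and 7095 with GSK126 against 8145 and 8193 with DMSO (-0.22 ± 0.07, adjusted p = 0.0210). The KARPAS-422 call was lost when any one of its 4 arrays was left out and after quantile normalization (adjusted p = 0.336). A dimmer CALR probe set was at 0.38 in KARPAS-422 and -0.15 in SU-DHL-6, and with the mean of its 3 probe sets neither fall was called. The SU-DHL-10 rise was also lost with that mean (0.22, adjusted p = 0.0576), the other probe sets being at 0.11 and 0.03 there.

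HSPA5 (BiP), a soluble chaperone of the same compartment, was chosen for description after its values were seen, as were PDIA3 and CANX. It rose in the 3 lines in which the CALR probe set used here rose, of which SU-DHL-10 was not called with the mean of CALR's probe sets. The rises were 0.54 ± 0.07 in WSU-DLCL2, 0.53 ± 0.07 in SU-DHL-4 and 0.45 ± 0.07 in SU-DHL-10. It was not called in SU-DHL-6 (-0.18) or KARPAS-422 (-0.12). PDIA3, the thiol oxidoreductase of the loading complex, and CANX, the membrane-bound relative of CALR, both lay between 0.03 and 0.13 in SU-DHL-10 and SU-DHL-4, with no call. CANX fell in KARPAS-422 (-0.39 ± 0.04) and rose in WSU-DLCL2 (0.18 ± 0.04), where PDIA3 rose too (0.18 ± 0.06). PDIA3 also rose in the wild type lines OCI-LY-19 (0.32 ± 0.06, adjusted p = 0.000787) and HT (0.19 ± 0.06, adjusted p = 0.0243).

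**Figure D4:**
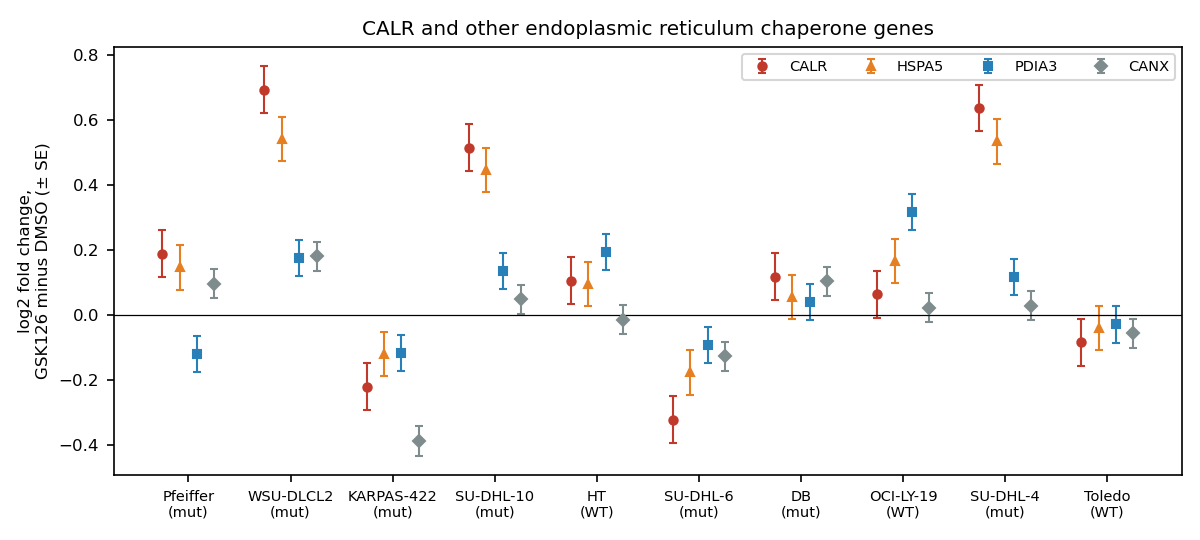
Log2 fold change (GSK126 minus DMSO, bars are SE) of CALR and of the chaperone genes HSPA5, PDIA3 and CANX in each line. CALR and HSPA5 are both above 0.4 in WSU-DLCL2, SU-DHL-10 and SU-DHL-4, and CALR is below 0 in KARPAS-422 (-0.22) and SU-DHL-6 (-0.32).

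ERAP1, the aminopeptidase that trims peptides, rose in KARPAS-422, with 930 and 895.5 on the GSK126 arrays, against 480 and 412.5 on the DMSO arrays. The arrays did not overlap (1.01 ± 0.11, adjusted p = 1.50e-08). KARPAS-422 had the lowest ERAP1 signal of the 10 lines under DMSO and the seventh of 10 with GSK126. The fold change was above 0 in 9 of 10 lines, the largest uncalled one being SU-DHL-4, with 1003 and 1025 with GSK126 against 876 and 735 with DMSO (0.33 ± 0.11, adjusted p = 0.0987). The 5 probe sets of ERAP1 disagreed. In KARPAS-422 the 3 brightest were at 1.01, 0.88 and 0.74, the fourth at -0.81 and the dimmest, never above the array median, at -0.14. With the mean of all 5 the KARPAS-422 value was 0.34 (adjusted p = 0.0698).

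The response differed among the 10 lines for all 9 genes (F test in limma), as it did for 38.8% of all genes. The smallest adjusted p-values were those of PSMB9 (2.70e-11), CALR (9.97e-09) and TAP2 (3.00e-08). Without KARPAS-422 it still differed for 7 of 9, against 31.5% of all genes. TAPBP (adjusted p = 0.505) and ERAP1 (adjusted p = 0.529) were no longer called.

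Under DMSO all 9 genes differed among lines, as did 84.6% of all genes. KARPAS-422 had the highest DMSO signal of TAP1, PSMB8, PSMB9 and PSME1, and SU-DHL-6 the lowest of TAP1, TAP2, PSMB8 and PSMB9. TAP1 averaged 2674 in KARPAS-422, 1804 in HT, 1454 in DB, 1148 in Pfeiffer, 1009 in Toledo, 989.9 in OCI-LY-19, 659.7 in SU-DHL-10, 584 in SU-DHL-4, 581 in WSU-DLCL2 and 426 in SU-DHL-6. The arrays of Toledo and OCI-LY-19 overlapped, as did those of SU-DHL-4 and WSU-DLCL2, and the other 7 neighbouring pairs did not. PSMB9 had the widest range, 10.7-fold between KARPAS-422 (6854) and SU-DHL-6 (641.8). The step between SU-DHL-6 and the next line, SU-DHL-4 (2173.5), was 3.39-fold.

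PSMB8 ran between 8115 in KARPAS-422 and 1121.5 in SU-DHL-6 under DMSO, and 8 of its 9 neighbouring pairs did not overlap. TAP2 was highest in SU-DHL-4 (4589.5) and lowest in SU-DHL-6 (827), followed by Pfeiffer (886), whose arrays overlapped those of SU-DHL-6. PSMB10 was highest in Pfeiffer (3152) and lowest in DB (817). CALR was also highest in Pfeiffer (10877) and lowest in WSU-DLCL2 (1414). ERAP1 was highest in SU-DHL-10 (1897) and lowest in KARPAS-422 (446). PSME1 spanned 2.66-fold and TAPBP 2.14-fold, the narrowest of the 9. Only 3 of 9 neighbouring pairs of TAPBP were without overlap.

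**Figure D5:**
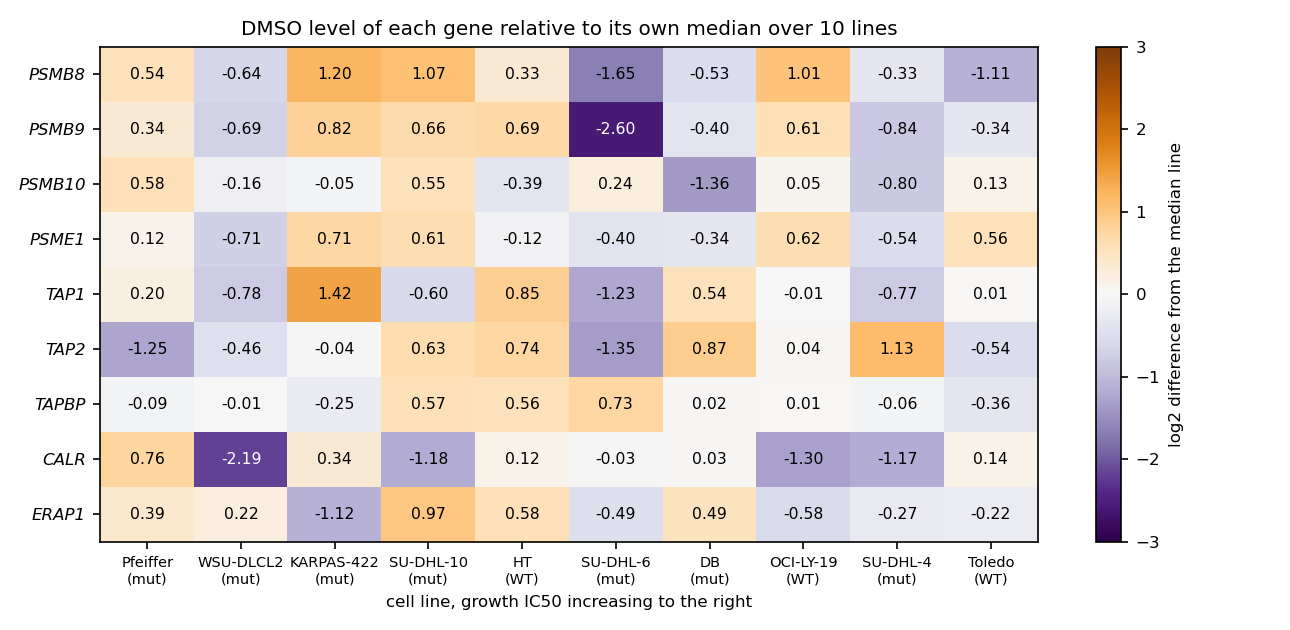
DMSO level of each gene (rows) in each line (columns, ordered by growth IC50) as the log2 difference from that gene's median line. SU-DHL-6 is lowest for PSMB9 (-2.60), PSMB8 (-1.65), TAP2 (-1.35) and TAP1 (-1.23), and KARPAS-422 is highest for TAP1 (1.42).

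The spread among lines was wider with GSK126 for some genes and narrower for others. With GSK126, TAP1 in KARPAS-422 (7819) was 13.1-fold above the lowest line, WSU-DLCL2 (597.5), while under DMSO the highest line was 6.28-fold above the lowest. For PSME1 the span was 4.29-fold with GSK126 and 2.66-fold with DMSO. For CALR it was 5.40-fold with GSK126 and 7.69-fold with DMSO. For TAP2 it was 4.58-fold with GSK126, when DB was highest and Pfeiffer lowest, and 5.55-fold with DMSO. These spans are not tests.

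Across lines, with the line as replicate, PSMB8 was the 1 gene of the 9 whose mean response of the 7 mutant lines passed the threshold. It averaged 0.28 ± 0.05 in the mutant lines (adjusted p = 0.0102) and was above 0 in 7 of 7, where 6.7% of all genes were called higher, 3.27% lower, and 26.5% had an unadjusted p under 0.05. TAP1 averaged 0.49 ± 0.15 in the mutant lines (adjusted p = 0.0514), ERAP1 0.30 ± 0.10 (adjusted p = 0.0657), and both were above 0 in 7 of 7. The TAP1 mean was 0.32 without KARPAS-422. At equal medians the PSMB8 mean was 0.13 (adjusted p = 0.139). The means of the 3 wild type lines lay between -0.05 (PSMB9) and 0.11 (PSMB10), with 0 of 9 genes and 0% of all genes called by limma, and 3.96% of all genes at an unadjusted p under 0.05.

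The difference in response between mutant and wild type lines passed for 0 of the 9 genes and for 0 genes in all, while 3.93% of all genes had an unadjusted p under 0.05. The largest was TAP1, with a mean of 0.49 in mutant and -0.01 in wild type lines (difference 0.50 ± 0.27, adjusted p = 0.991). PSMB8 had 0.28 in mutant and 0.01 in wild type lines, a difference of 0.27 ± 0.10 (unadjusted p = 0.0157). The slope on log10 growth IC50 was below 0 for each of the 9 genes, between -0.23 ± 0.18 for TAP1 and -0.04 ± 0.13 for CALR per 10-fold IC50. The 9 slopes share the same lines, and the share of all genes with a slope below 0 was not worked out. None of the 9 slopes passed, with 0.00657% of all genes called and 10.7% at an unadjusted p under 0.05. The mean DMSO level did not pass for any of the 9 either (0.0263% of all genes called higher and 0.0263% lower in mutant lines). The largest difference there was PSMB9, at 11.55 in mutant and 12.25 in wild type lines on the log2 scale (-0.70 ± 0.64, adjusted p = 0.839).

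Loaded peptides sit in the groove of the class I chains, whose genes are switched on by the transactivator NLRC5. The 7 tested genes of this list had 31 rises and 0 falls in 70 comparisons, 25 of the rises outside KARPAS-422, against 7.55% risen and 5.13% fallen over all genes and lines. In KARPAS-422 6 of 7 rose, at a median of 1.84, the largest being HLA-G (1.93 ± 0.16). In Pfeiffer 7 of 7 rose, at a median of 0.69, the largest being NLRC5 (0.94 ± 0.29). HLA class I genes are near-identical in places, and their probe sets may read each other. In DB 5 of 7 class I genes rose, at a median of 0.95, while 0 of the 9 immunoproteasome and loading genes were called. HLA-B had 793 and 696.5 with GSK126 there, against 365 and 299.6 with DMSO (1.13 ± 0.09). NLRC5 had 129 and 152 with GSK126, against 19 and 73.9 with DMSO (1.44 ± 0.29). The NLRC5 signals were dim, its DMSO arrays lay far apart, and the lower was near the 17.72 added to all signals before analysis. HLA-B and NLRC5 were chosen after their values were seen, and the arrays of the treatments overlapped for neither. In WSU-DLCL2 0 of 7 class I genes and 4 of 9 members rose. The counts there were 3 of 7 and 6 of 9 after quantile normalization, and 0 of 7 and 1 of 9 at equal medians. The class I count fell to 18 rises and 1 fall at equal medians, and 5 of 7 in DB stood.

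Of 11 tested interferon regulators, 6 rose in KARPAS-422 (15.5% of all genes), led by IRF7 (1.75 ± 0.12), which drives interferon genes. In Pfeiffer 6 rose (14.6%) and 2 fell (9.93%). The largest change there was that of IRF9 (0.80 ± 0.13), the DNA-binding part of the complex formed downstream of type I interferon. Over all lines this list had 23 rises and 5 falls in 110 comparisons, against 7.55% risen and 5.13% fallen over all genes. It had 13 rises and 11 falls at equal medians, in a scaling that lowered all genes in most lines. In SU-DHL-6, where PSMB9 rose, 2 of 11 regulators were called risen (7.42% of all genes) and NLRC5 was not called (-0.15 ± 0.29). IRF1, a direct activator of PSMB9 and TAP1, was looked at after its values were seen. It rose in KARPAS-422 (1.50 ± 0.12) and Pfeiffer (0.39 ± 0.12), fell in WSU-DLCL2 (-0.71 ± 0.12), and was at 0.22 ± 0.12 in SU-DHL-6 with no call (adjusted p = 0.288).

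Among other genes of loading and trimming, 11 measured genes had 11 rises and 6 falls in 110 comparisons. Over all genes and lines 7.55% rose and 5.13% fell. At equal medians the list had 5 rises and 19 falls, in a scaling that lowered all genes in most lines. In KARPAS-422 3 rose and 3 fell, where 15.5% of all genes rose and 13.4% fell. TAPBPL, a second peptide editor of class I, rose there by 1.58 ± 0.26, with 210 and 233 on the GSK126 arrays, against 60.8 and 63.9 on the DMSO arrays. UGGT1, which marks unfolded glycoproteins for another round of folding, rose by 0.61 ± 0.08, and ERAP2, the partner of ERAP1, by 0.54 ± 0.15. These 3 genes were chosen for description after their values were seen. TAPBPL also rose in DB (1.01 ± 0.26, adjusted p = 0.0287), with dim signals of 70.2 and 49.1 with GSK126, against 31.6 and 11.7 with DMSO.

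Correlations of the log2 fold changes over the 10 lines describe which genes moved alike. The points share the arrays and their scaling, and KARPAS-422 weighs heavily. TAPBP and PSMB10 had Pearson's r = 0.984, and 0.922 without KARPAS-422. TAP1 and PSMB9, whose starts lie 487 bases apart, had r = 0.751, and 0.583 without KARPAS-422. TAP2 and PSMB9 had 0.788 and 0.758, and PSMB8 and PSMB9 had 0.680 and 0.652. TAP1 and ERAP1 had 0.699 with KARPAS-422 and -0.371 without it. CALR ran against PSMB9, at -0.701 with KARPAS-422 and -0.631 without. In DMSO level the closest pair was PSMB8 and PSMB9, at 0.888.

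Outside the 9 genes, the 3 tested genes with fold changes most like those of PSMB9 over the 10 lines were FRMD6 (r = 0.938), ACBD4 (0.931) and RTN4IP1 (0.913). For PSMB8 they were BLVRA (0.936), DIP2A (0.933) and HLA-DRB4 (0.925). For PSMB10 they were IRF7 (0.966), SPIN3 (0.962) and XPNPEP1 (0.961). For TAP1 they were MVB12A (0.940), XIAP (0.940) and LOC100996740 (0.933). FRMD6 was at 1.64 in KARPAS-422 and 1.76 in SU-DHL-6, the same 2 lines in which PSMB9 rose. These names are the highest among the tested genes and carry no test.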

How the data were processed

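RNA of 40 cultures was read on one-colour Affymetrix arrays. The deposited values are log2 signals, made with MAS5 per the submitters' processing notes, no version being given in the sources used here. Linear signals, with 2% of probe sets trimmed from either end, averaged 500 on each array. No detection calls were used, and precision is limited by the number of arrays. The values were analysed as log2(signal + 17.72), a pseudocount set to the median over arrays of the 25th percentile, which understates changes of dim genes.

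Of 54675 probe sets 41091 had 1 symbol in the platform annotation, which can be old. A gene was tested if its probe set lay above the array median on at least 2 arrays. With limma 3.58.1 (R 4.3.3), 20 groups of 2 arrays were fitted together with an intensity trend (20 residual and 6.98 prior degrees of freedom) for the contrast of treatments in every line. Across lines each line gave 1 value. Tests were two-sided, adjusted by Benjamini-Hochberg over all tested genes and called under 0.05. Errors are standard errors.

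The members and gene lists were chosen with earlier results of these data known, and the test of a differing response among lines was added after seeing the data. Text names follow a rule: all members in every line, constitutive counterparts, the list gene of largest change among class I and interferon regulators in KARPAS-422, Pfeiffer or the mutant mean, and the 3 nearest genes by correlation. Other names are said to be chosen after their values were seen. Alternatives were other pseudocounts, quantile and equal-median scaling, no filter, the mean of all probe sets, no trend, a replicate block, each line alone, an R tag term (the labels' tags R6, R7 and R8, of unstated meaning) and leaving out arrays or lines. The code was tested on simulated data.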

Additional observations from a re-analysis of the deposited data

Results flagged for a closer look

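Among the 7 mutant lines, the response of KARPAS-422 stood apart by Dixon's test for 4 genes: TAP1 at 1.54, TAP2 at 1.05, TAPBP at 0.62 and ERAP1 at 1.01. The next mutant lines were at 0.57, 0.33, 0.17 and 0.33. In all, 18 sets of 7 lines were examined (responses and DMSO levels of 9 genes), and these 4 were marked. Chance would mark about 1 in 20 of independent sets. The 4 marks are all of the same line and share its arrays, so that rate cannot be held against them. The share of all genes that would be marked was not worked out. PSMB10 in KARPAS-422 had a gap of 0.564 of the range and was not marked, and in SU-DHL-6 the PSMB9 response of 1.05 had KARPAS-422 beside it.

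For each of the 9 genes the GSK126 response differed among the 10 lines by the F test, as it did for 38.8% of all genes. The test was added after seeing the data. Its adjusted p-values were 2.7e-11 for PSMB9, 9.97e-09 for CALR, 3e-08 for TAP2, 6.49e-07 for TAP1, 7.95e-07 for PSMB10, 5.73e-06 for PSME1, 0.00016 for ERAP1, 0.000644 for PSMB8 and 0.00277 for TAPBP.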

How the results depend on the processing

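Over the 90 gene-by-line comparisons the number called was 25, and 16 with the arrays at equal medians, where the counts per line were 0 in Pfeiffer (3 as reported), 2 in WSU-DLCL2 (4), 0 in HT (1) and 2 in SU-DHL-6 (5), and 0 genes passed for the mean of the mutant lines (1). That scaling assumes equal medians in every culture. It also moved the share of rises among all called genes, to 31.9% in KARPAS-422 (53.6% as deposited), 30.6% in Pfeiffer (59.6%), 18.3% in WSU-DLCL2 (52.3%), 19% in SU-DHL-10 (60.6%) and 23.2% in SU-DHL-6 (67.6%). Quantile normalization gave 1 call in DB (0), for PSMB8. The mean of all probe sets of a gene left 1 call in SU-DHL-10 (2). With each line fitted alone, SU-DHL-10 had 1, HT 2 (1) and SU-DHL-6 1 (5), with 2 residual degrees of freedom. With the R tag as a term 2 genes passed for the mutant mean, TAP1 (0.53, adjusted p = 0.0245) joining PSMB8. The replicate numbers did not pair the arrays: deviations of same-numbered arrays from their group means correlated between -0.0446 and 0.0694. With the replicate block 1 gene was called in SU-DHL-10, where TAP1 had an adjusted p of 0.0592, and 24 of the 90 comparisons were called in all. None of the 25 calls within lines reversed its direction under the alternatives run.

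Leaving out single arrays gave between 1 and 3 calls in Pfeiffer, 1 and 3 in SU-DHL-10, 2 and 5 in SU-DHL-6, 1 and 2 in SU-DHL-4, and 0 in HT. In Pfeiffer TAP1 (0.38) and PSMB8 (0.18) were lost without GSK126 array 1. TAP1 was also lost there without DMSO array 1, and PSMB8 without DMSO array 2. The CALR fall in SU-DHL-6 was lost without DMSO array 1 (-0.22), without GSK126 array 1 and with the line fitted alone. In SU-DHL-6 TAP1 ran between 0.28 and 0.86. The TAP1 call in SU-DHL-10 was lost in 3 of 4 such fits, and PSMB10 in WSU-DLCL2 without DMSO array 2. In KARPAS-422 8 of 9 calls stood in each. Leaving out single lines gave between 1 and 2 genes for the mutant mean, 2 without DB (TAP1 0.56, adjusted p = 0.0413), and 7 to 9 genes whose response differed among lines. Other pseudocounts, no filter and no trend kept each count within 1.5 times of its value. A left-out array leaves a group with 1 array, assumed to vary like the other groups.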
